A study of Mus musculus with 9 samples.

Results

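The response of Eµ-Myc lymphoma cells to JQ1 was taken from 6 of the 9 libraries of the study: the 3 libraries of cells treated with 1 µM JQ1 for 2 h and the 3 libraries of cells given DMSO, the solvent, for the same time. The members were the columns of the count table named for JQ1 and for DMSO, replicates 1 to 3 of each. The other 3 libraries came from cells given 2.5 µM RG6146 for 2 h and entered only the estimate of the spread between replicates. Every library came from clone 4242, a single cultured B-cell lymphoma clone from a mouse whose Myc transgene is driven by the immunoglobulin heavy chain enhancer. All groups therefore carry the transgene. The replicates are numbered libraries of 1 clone, so the p-values measure the spread between these libraries and not between tumours or mice. The assay was 3′ mRNA sequencing with the QuantSeq kit from 500 ng of RNA, read on a NextSeq 500 as single reads of 75 bases, which counts transcripts by a tag near the polyadenylated end.

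BET proteins are chromatin readers whose bromodomains bind acetylated lysines of histones, at enhancers and promoters in particular, and they help to bring the elongation kinase P-TEFb to RNA polymerase II. JQ1 is a small molecule that occupies the acetyl-lysine pocket of these bromodomains and displaces the proteins from chromatin. In lymphoid tumours BET inhibition is known for lowering genes that depend on strong lineage enhancers, and for raising Hexim1, the inhibitory partner of P-TEFb, and Brd2 itself.

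Gene counts per library lay between 3410161 and 5003725 under DMSO and between 3964732 and 5031717 under JQ1, and no pair of replicate libraries was as alike as 1 library sampled again. All 14 B cell markers had counts, so the labelled cell type was present, and their summed level was 1547 ± 106 CPM (CPM being a gene's counts scaled to a common library total, SD, n = 3) under DMSO and 1032 ± 38.6 under JQ1, with 6 of 12 tested members lower and none higher. The sum did not overlap between the groups (exact permutation test, two-sided, p = 0.1, the smallest that 3 against 3 libraries allow). In bulk samples, fewer cells of a type and less RNA per cell cannot be told apart. Myeloid markers summed to 175, 793 and 382 CPM in DMSO libraries 1 to 3 and to 86.5, 296 and 60.5 CPM in JQ1 libraries 1 to 3 (exact permutation p = 0.2), with 1 of 11 tested members called higher and none lower. Markers of T and NK cells reached a sum of 11.1 ± 2.27 and 5.31 ± 2.73 CPM (n = 3 each, exact permutation p = 0.1), with the 1 tested member lower and Gzmb, Ncr1 and Trac at 0. Stromal and endothelial markers summed to 136 ± 6.47 and 100.05 ± 1.26 CPM (n = 3 each, exact permutation p = 0.1), with 1 of 2 tested members lower and Dcn and Lum at 0, and erythroid markers to 7.35 ± 2.04 and 9.13 ± 9.15 CPM (n = 3 each, exact permutation p = 1). The part of these other cells in the results was not tested. Without the DMSO and JQ1 libraries numbered 2, where the myeloid sum was highest in each group, 2529 genes were called. Mitochondrially encoded genes took 5.04% to 6.14% of gene counts under DMSO and 4.74% to 6.18% under JQ1.

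The treatment showed in the genes known for it. Hexim1 stood at 138, 129 and 139.8 CPM in the DMSO libraries and at 394, 392 and 400.0 in the JQ1 libraries. Brd2, on chromosome 17, stood at 426, 583 and 564 CPM under DMSO and at 1678, 1773 and 1682 under JQ1. Neither gene overlapped between the groups, with log2 fold changes of 1.55 ± 0.07 (SE, adjusted p = 6.5e-11) and 1.71 ± 0.23 (adjusted p = 0.0023). The strand setting of the counting is not given in the sources used here, so reads of genes that overlap on opposite strands may not be separated. Among the genes named, this holds for Brd2 with H2-DMa, Tardbp with Masp2, Dkc1 with Mpp1, Srsf2 with Mfsd11, Junb with Prdx2, Hdac7 with Slc48a1 and Mrpl19 with Gcfc2. Bcl2l11, the gene of the cell death effector BIM, held 42.9, 37.8 and 37.9 CPM under DMSO and 149, 150.2 and 155 under JQ1, a log2 fold change of 1.93 ± 0.08. Myc, which the transgene also supplies, did not fall: its libraries held 125, 113 and 103 CPM under DMSO and 128, 174 and 154 under JQ1, a log2 fold change of 0.42 ± 0.11 (adjusted p = 0.0082, 0.06 with library size scaling and 0.092 without JQ1 and DMSO libraries 2). Counts per gene do not separate the transgene from the resident gene.

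Across all genes the change was broad and mostly small. Of 11002 genes tested, 3184 (28.9%) passed edgeR's quasi-likelihood test at a threshold of 0.05 on the adjusted p (Benjamini-Hochberg) and are named called, 1495 higher (13.6%) and 1689 lower (15.4%). Calls over 2-fold were 265 higher (2.41%) and 557 lower (5.06%). The median called gene was 1.46-fold higher or 1.66-fold lower. Of the genes that fell, 33.0% fell by more than 2-fold, and of those that rose, 17.7% rose by more than 2-fold. The genes that rose were more abundant, with a median level of 41.8 CPM against 20.1 CPM for those that fell and 20.02 CPM for all tested genes, where a level is the TMM-normalised CPM averaged over the 6 libraries. In sum the higher genes gained 66524 TMM-normalised CPM and the lower genes lost 28123. The TMM factors were 0.948, 0.977 and 0.968 in JQ1 libraries 1 to 3. In DMSO libraries 1 to 3 they were 1.067, 1.036 and 1.070. Totals in TMM-normalised CPM therefore differ between the groups, and the 2 sums do not measure RNA gained or lost by the cells. With library size scaling in place of TMM, 27.2% of 3357 calls were higher, against 47.0% of the 3184 with TMM.

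The intervals also show where little changed. For 4391 genes (39.9%) the whole 95% interval of the fold change lay within 1.5-fold of no change, and 555 of these were still called, with small shifts. For 769 genes the interval lay wholly beyond 1.5-fold, 286 higher and 483 lower. For the remaining 5842 genes the interval crossed a 1.5-fold limit, so they fell in neither set, and called genes are among them. The JQ1 and DMSO libraries did not overlap for 42.6% of tested genes, and 72 called genes did overlap.

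**Figure D1:**
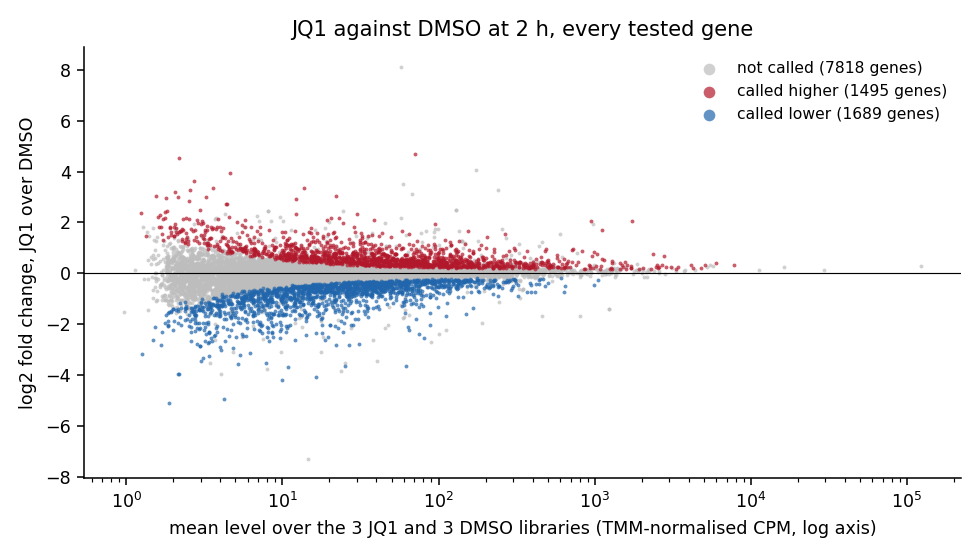
Each point is 1 of the 11002 tested genes, placed by its mean level over the 6 libraries (TMM-normalised CPM, log axis) and its log2 fold change of JQ1 over DMSO. Called genes fan out at low levels on the lower side, while above 1000 CPM 43 genes were called higher and 1 lower.

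Ranking by the gain in CPM favours abundant genes. The row Gm42418 took 9.95%, 13.1% and 11.9% of gene counts in DMSO libraries 1 to 3. In JQ1 libraries 1 to 3 it took 13.7%, 13.1% and 12.3%. Without that row, 3189 genes were called. Among the called genes without overlap that are described here, H3f3b, which encodes the replication-independent histone H3.3, had the largest gain. It stood at 728, 658 and 641 CPM in the DMSO libraries and at 2651, 2878 and 2811 CPM in the JQ1 libraries, so that every JQ1 library held over 3 times any DMSO library, a log2 fold change of 2.04 ± 0.06 (adjusted p = 4.5e-13). The RNA-binding protein gene Rbm34 went from 333, 371 and 394 CPM to 1603, 1382 and 1586 CPM, 4.16-fold higher (adjusted p = 1.6e-11). H3f3b lies at chr11:116021912-116027962 and Rbm34 at chr8:126947172-126971071, both on the minus strand of mm10, and no annotated gene overlaps either on the opposite strand. Malat1, an abundant nuclear long noncoding RNA at chr19:5795690-5802672, rose from 1732 ± 105 to 2969 ± 217 CPM (log2 fold change 0.78 ± 0.07). Ribosomal protein genes among the 10 largest gains rose by less in proportion: Rplp2 by 1.24-fold from 6974 ± 438 CPM, Rplp1 by 1.32-fold from 5118 ± 343 CPM and Rps9 by 1.24-fold. The chaperone gene Hsp90ab1 and the nucleolar gene Ncl were also in that set, at log2 fold changes of 0.32 and 0.19. Ncl was not called with library size scaling (adjusted p = 0.54), nor without JQ1 library 1 (0.053), JQ1 library 3 (0.12) or DMSO library 3 (0.096). With library size scaling Rps9 was called at an adjusted p of 0.049.

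Of the 10 largest losses of CPM, 8 are described here. Tardbp, which encodes the RNA-binding protein TDP-43, held 775, 805 and 807 CPM under DMSO and 507, 476 and 464 under JQ1, a log2 fold change of -0.72 ± 0.07 (adjusted p = 4.2e-07). Foxp1, a forkhead factor of B cell development at chr6:98925338-99522721, held 499.5, 534 and 529 CPM under DMSO and 315, 298 and 317 under JQ1. Every JQ1 library lay below every DMSO library for both genes, a condition of the ranking. Bcl7a, a subunit of SWI/SNF chromatin remodelling complexes, fell from 421 ± 5.52 to 224 ± 16.2 CPM and Akap12, a scaffold of protein kinase A, from 490.0 ± 13.2 to 295 ± 15.2 CPM. Fubp1, which encodes a protein known for binding upstream of Myc, fell from 462 ± 4.32 to 279 ± 28.1 CPM. Anp32b, a histone chaperone gene, and Dkc1, the pseudouridine synthase of nucleolar and telomerase RNA, fell by 1.36-fold and 1.41-fold. Ikzf1, which encodes the lymphoid factor Ikaros, showed the largest proportional fall of the 10: it held 224, 249 and 203 CPM under DMSO and 75.8, 76.9 and 72.4 under JQ1, a log2 fold change of -1.59 ± 0.09 (adjusted p = 6.1e-10).

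**Figure D2:**
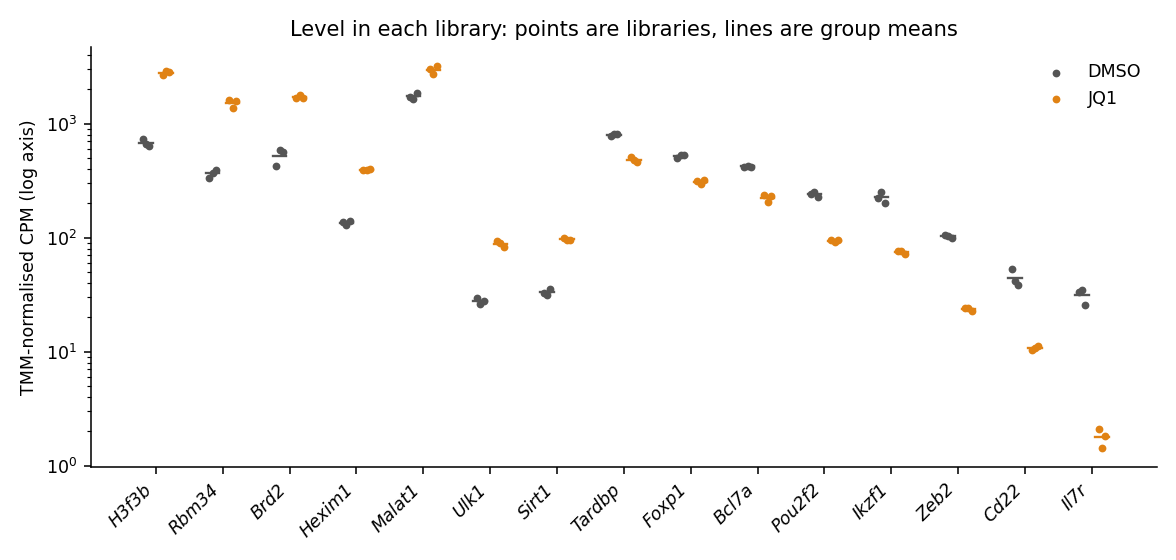
Level of 15 of the named genes in every library (TMM-normalised CPM, log axis), with a line at each group's mean over 3 libraries. The genes were picked from those described in the text after their values were seen. For those ranked by gain or loss of CPM, no overlap between the groups was a condition. The groups do not overlap for any gene shown, from H3f3b at 641 to 728 CPM under DMSO and 2651 to 2878 CPM under JQ1 down to Il7r at 25.4 to 34.7 and 1.428 to 2.104 CPM.

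The share of genes called in each direction moved with transcript level. Between 10 and 25 CPM, 12.2% of 2533 genes were called higher and 17.9% lower. Between 300 and 1000 CPM, 29.9% of 334 were higher and 6.59% lower, and above 1000 CPM 36.1% of 119 were higher and 0.84% (1 gene) lower. Falls over 2-fold made up 9.88% of genes between 5 and 10 CPM, 5.09% between 10 and 25 CPM, 0.355% between 100 and 300 CPM and none above 300 CPM. A level that includes the JQ1 libraries places risers higher and fallers lower, so the classes were also formed from the DMSO libraries alone, a choice made after seeing the data. From 10 CPM upward the pattern was alike: 11.5% higher and 19.2% lower between 10 and 25 CPM, and 32.1% higher and 1.79% lower above 1000 CPM. Falls over 2-fold by DMSO level were 9.81% between 5 and 10 CPM, 6.75% between 10 and 25 CPM, 1.65% between 100 and 300 CPM and none above 300 CPM. Under 5 CPM they were 10.3% by the 6-library mean and 5.38% by the DMSO mean. Under 5 CPM the order turned, with 6.44% higher and 11.04% lower by the 6-library mean but 10.3% higher and 5.49% lower by the DMSO mean, so no direction was read from the lowest class. Scaling by library size without TMM moved the median of all genes from 0.0047 to -0.13 and changed the balance, with 8.29% higher and 24.9% lower between 10 and 25 CPM and 15.97% higher and 4.202% lower above 1000 CPM. The share called higher was larger above 1000 CPM than between 10 and 25 CPM under 18 of 19 alternatives, the exception being scaling by ERCC spike-ins, and the share called lower was smaller under 19 of 19.

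**Figure D3:**
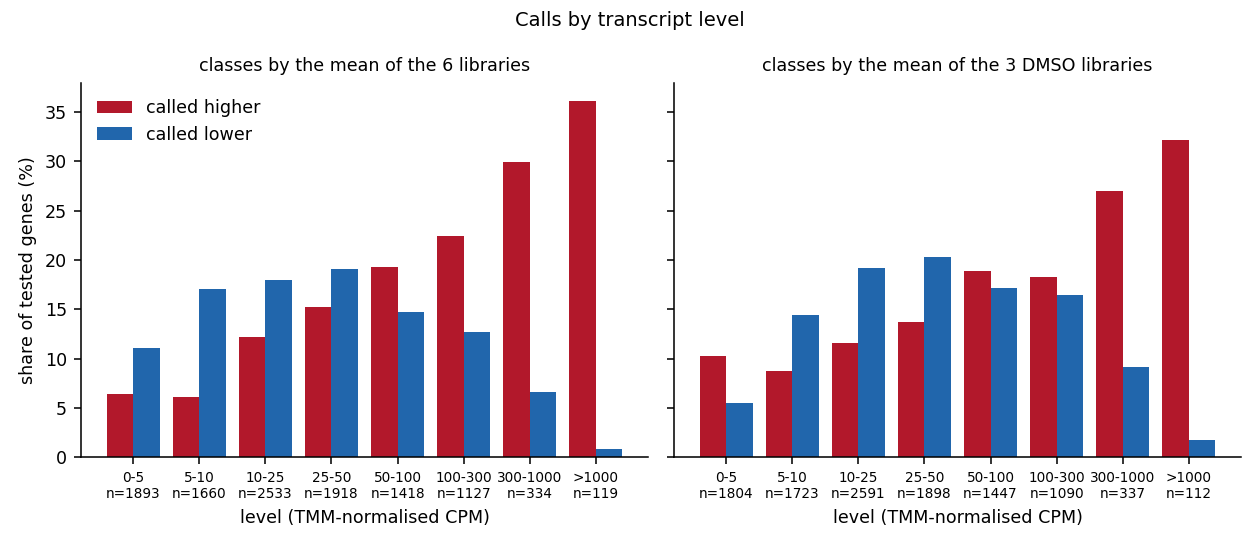
Share of tested genes called higher (red) and lower (blue) by class of level in TMM-normalised CPM, with the number of genes under each class, on the left by the mean of the 6 libraries and on the right by that of the 3 DMSO libraries. From 25 CPM upward the blue bars shrink in both panels and the red bar is the taller one from 50 CPM, while under 5 CPM the panels differ in which bar is taller. With library size scaling, not drawn, the red bar above 1000 CPM would stand at 15.97%.

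A few transcripts passed from near silence to a clear level, or the reverse. Called genes with a mean under 1 CPM in DMSO numbered 35, and called genes with a mean under 1 CPM in JQ1 numbered 41. Gm8251, at chr1:44055952-44061936, had the highest JQ1 level of the first set. It held 0.376, 0.569 and 0.719 CPM under DMSO and 9.68, 8.81 and 7.58 under JQ1 (adjusted p = 7.9e-07). Pdlim7, which encodes a PDZ and LIM domain protein of the actin cytoskeleton, went from 0.188, 0.284 and 1.44 CPM to 7.37, 6.90 and 5.49. Mpzl1, Frmd6 and Morn3 reached 5.80 ± 1.23, 5.08 ± 1.27 and 4.99 ± 0.627 CPM. In the other direction, Rag1, which encodes a subunit of the V(D)J recombinase, held 11.5, 8.81 and 8.39 CPM under DMSO and 0.21, 2.14 and 0 under JQ1 (adjusted p = 5.8e-04). The receptor gene P2ry10b went from 6.39, 8.25 and 9.83 CPM to 0, 0.238 and 0.523, which are too few counts for a fold. Fam169b, the potassium channel gene Kcnk1 and Gm37787 ended at 0.993 ± 0.704, 0.866 ± 0.558 and 0.913 ± 0.371 CPM. Gm37787 lies opposite Slamf7, and their reads may not be separated.

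To describe function, 52 families were defined by gene symbols and hold 1913 of the tested genes (17.4%). By counts of calls, 27 families had more members lower and 22 more members higher. With library size scaling all 27 kept more lower calls, while of the 22 only the bZIP factors and autophagy genes kept more higher calls, 4 were tied and 16 had more lower. With ERCC scaling and the replicate block, 27 of 27 and 19 of 22 kept their side and 3 were tied. With ERCC scaling alone, which called fewer genes, 21 of 27 and 7 of 22 did. Of the 27, 6 were tied, and of the 22, 6 were tied and 9 had more lower. No family as a whole was tested, and each count is read against the 13.6% higher and 15.4% lower of all tested genes.

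**Figure D4:**
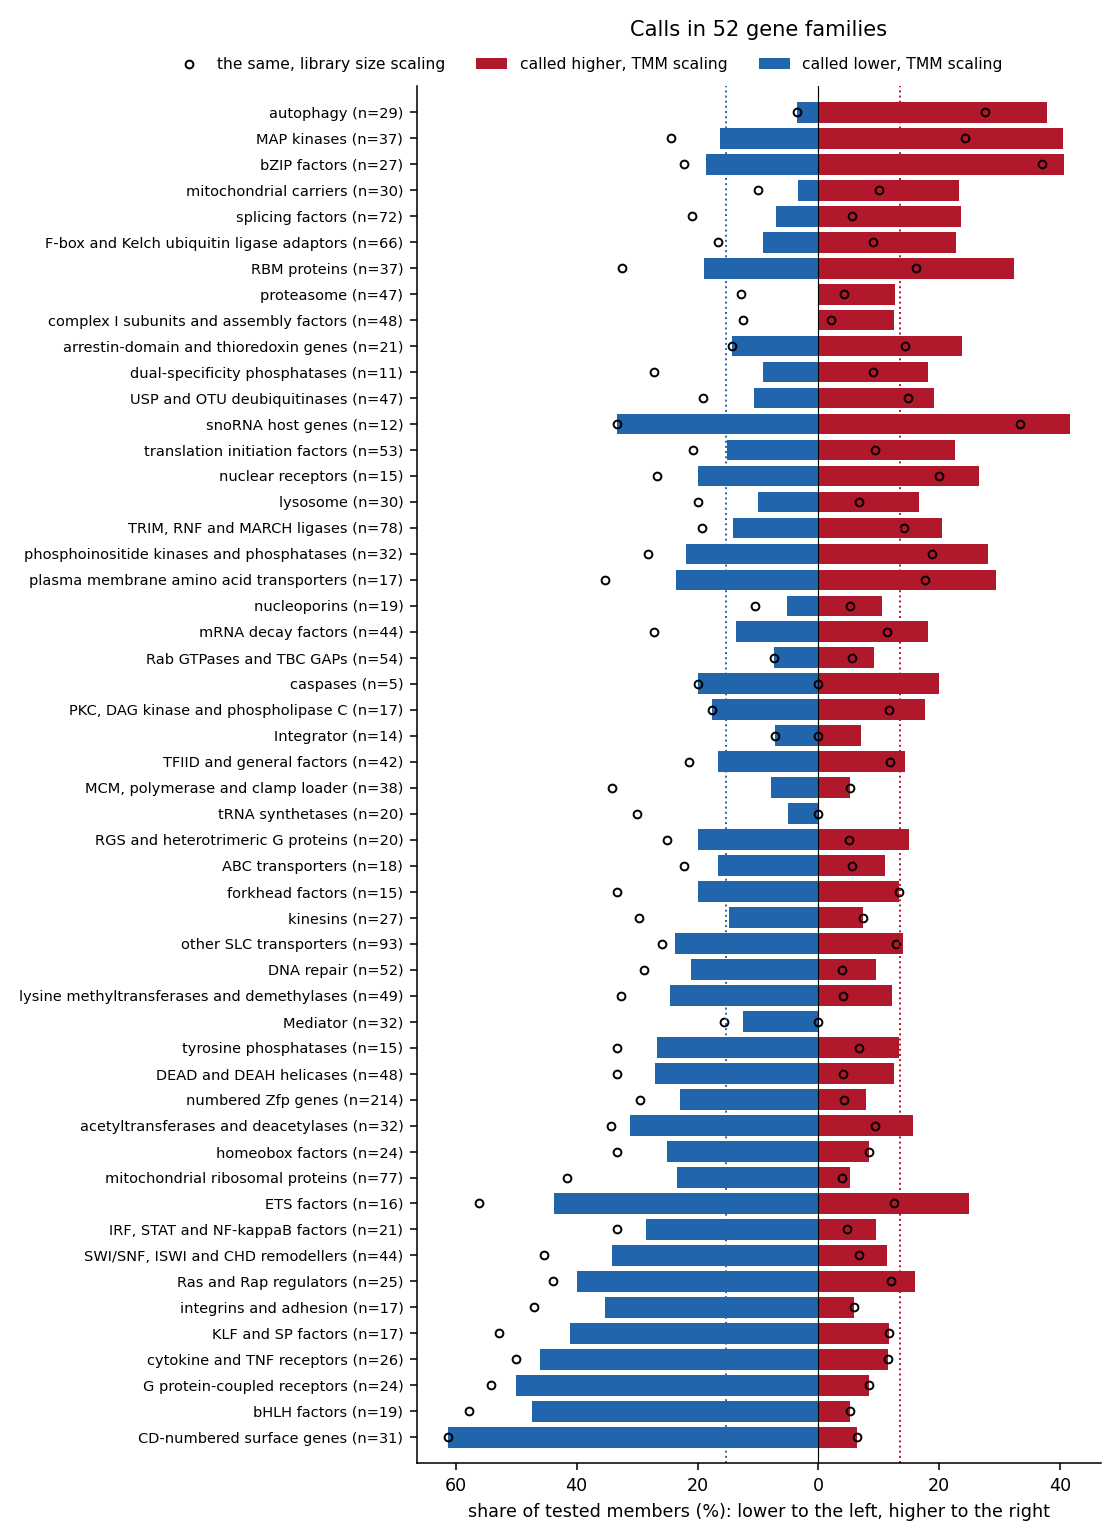
For each of 52 families, the share of tested members called higher (red, to the right) and lower (blue, to the left), ordered by their difference, with open circles for the same shares under library size scaling. Dotted lines mark all tested genes, 13.6% higher and 15.4% lower. CD-numbered surface genes stand at the bottom with 19 of 31 lower, and autophagy genes at the top with 11 of 29 higher. With library size scaling 20 of the 22 families with more red than blue lose that order, among them splicing factors and proteasome genes.

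Genes of the cell surface stood well above the background on the lower side. Of 31 tested CD-numbered genes, surface antigens of leukocytes, 19 fell and 2 rose, and the median log2 fold change was -0.95. Cd22, an inhibitory coreceptor of the B cell receptor, held 52.7, 41.8 and 38.4 CPM under DMSO and 10.3, 10.7 and 11.2 under JQ1, 4.13-fold lower (adjusted p = 9.9e-08). Cd79b, a signalling chain of the B cell receptor, fell from 101 ± 18.99 to 43.3 ± 2.05 CPM, Cd72 from 189 ± 9.07 to 97.9 ± 9.60 and the ectoenzyme gene Cd38 from 9.23 ± 1.02 to 1.74 ± 0.577. Of 24 tested G protein-coupled receptors, 12 fell and 2 rose (median -0.61). S1pr1, the sphingosine-1-phosphate receptor of lymphocyte egress, held 25.2, 25.9 and 35.5 CPM under DMSO and 7.58, 6.90 and 6.80 under JQ1. Ccr7, the chemokine receptor of lymph node homing, fell from 15.8 ± 2.88 to 3.84 ± 0.983 CPM. Of 26 tested cytokine and TNF receptors, 12 fell and 3 rose (median -0.59), and 11 of the 12 falls exceeded 2-fold. Il15ra fell from 14.3 ± 1.25 to 2.78 ± 0.598 CPM, and Tnfrsf13c, the BAFF receptor that supports B cell survival, from 35.1 ± 3.86 to 13.5 ± 2.38. Integrins and adhesion genes had 6 of 17 lower and 1 higher. Itga4, the alpha4 integrin chain, had a mean of 81.3 CPM under DMSO and 37.4 under JQ1, and Selplg, the P-selectin ligand, 34.2 and 12.1. The median level of the CD-numbered genes was 13.2 CPM, and among all genes between 10 and 25 CPM 17.9% were called lower.

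Signalling genes beneath the receptors were mixed. Of 25 tested Ras and Rap regulators, 10 fell and 4 rose. Rasgrp1, a diacylglycerol-dependent activator of Ras, fell 11.4-fold from 14.5 ± 2.71 CPM, and Rapgef6 rose 1.39-fold. Phosphoinositide kinases and phosphatases had 9 of 32 higher and 7 lower. Pik3r1, a regulatory subunit of phosphoinositide 3-kinase, rose 2.20-fold to 89.1 ± 11.6 CPM, while the lipid phosphatase gene Inppl1 fell 2.34-fold to 36.2 ± 1.21 CPM. MAP kinases were called higher more often than lower, 15 against 6 of 37, but with library size scaling the counts were 9 and 9, so no direction was read. Without JQ1 library 1 they were 8 and 5, without DMSO library 1, 9 and 5, without JQ1 library 3, 11 and 3, and with DESeq2, 7 and 3. Map2k3, a kinase upstream of p38, rose from 87.8 ± 8.49 to 171 ± 4.54 CPM and Mapk8, the JNK1 gene, from 28.1 ± 3.51 to 47.2 ± 2.104 CPM.

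Among transcription factor families, bZIP factors and nuclear receptors had more rises than falls, and the others more falls. Nuclear receptors had 4 of 15 higher and 3 lower, and 3 and 4 with library size scaling. Of 214 tested numbered Zfp genes, mostly zinc finger factors, 49 fell and 17 rose, with a median of -0.19. DESeq2 called 21 lower and 8 higher, and the rises were 11 without JQ1 library 3 and 10 without DMSO library 3. Zfp638 fell 1.83-fold and Zfp518a 3.11-fold. Of 19 bHLH factors, 9 fell and 1 rose, and the riser was Id3, an inhibitor of E proteins, from 61.6 ± 7.87 to 115 ± 3.45 CPM. Without JQ1 library 1 the falls were 6, and with DESeq2 they were 5. KLF and SP symbols had 7 of 17 lower and 2 higher, a set that also takes in speckled-body genes such as Sp110. Klf13 fell 1.78-fold and Klf2, a factor of lymphocyte quiescence, from 57.7 ± 2.56 to 38.3 ± 3.002 CPM. Homeobox factors had 6 of 24 lower and 2 higher. Zeb2 was the steepest of these, at 106, 104 and 99.0 CPM under DMSO and 24.2, 24.3 and 22.7 under JQ1, 4.33-fold lower (adjusted p = 7.1e-11). The octamer factor genes Pou2f1 and Pou2f2 fell 2.96-fold and 2.56-fold. IRF, STAT and NF-kappaB genes had 6 of 21 lower and 2 higher, Irf2 at 2.21-fold lower and Irf4 at 2.09-fold lower. Of 27 bZIP factors, 11 rose and 5 fell (10 and 6 with library size scaling). Jund, an AP-1 subunit gene, held 71.5, 76.5 and 73.4 CPM under DMSO and 243, 229 and 236 under JQ1, 3.20-fold higher (adjusted p = 2.0e-09), Jun rose 2.99-fold, Junb 2.09-fold and the stress factor gene Atf4 1.65-fold.

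Chromatin genes held changes in both directions. Symbols of SWI/SNF, ISWI and CHD remodellers had 15 of 44 lower and 5 higher (median -0.17). The set also takes in ARID genes outside these complexes, such as Arid3a and Arid4b. Beside Bcl7a, Chd7 fell 1.93-fold and Arid3a 1.93-fold, while Arid4b rose 1.42-fold. Acetyltransferases and deacetylases had 10 of 32 lower and 5 higher. Sirt1, an NAD-dependent deacetylase, held 32.5, 31.3 and 35.2 CPM under DMSO and 98.5, 95.2 and 95.4 under JQ1, 2.92-fold higher (adjusted p = 1.7e-09). The class IIa deacetylase gene Hdac7 fell 2.50-fold from 107 ± 5.01 CPM. Lysine methyltransferases and demethylases had 12 of 49 lower and 6 higher, which became 7 and 6 without JQ1 library 2 and 7 and 3 with DESeq2. Parts of the transcription machinery stood nearer to the background or below it. Mediator had 4 of 32 lower (2 without JQ1 library 2, JQ1 library 3 or DMSO library 3) and none higher, with Med8 at 52.3 ± 6.24 and 33.0 ± 1.81 CPM, Integrator 1 of 14 in each direction, and TFIID and the general factors 6 of 42 higher and 7 lower.

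RNA and translation genes were abundant, and the direction of several families depended on the scaling. Splicing factors, with a median level of 201 CPM, had 17 of 72 higher and 5 lower with TMM but 4 and 15 with library size scaling. Srsf2, a serine- and arginine-rich splicing factor gene, held 555, 617 and 589 CPM under DMSO and 1059, 1076 and 1085 under JQ1, 1.83-fold higher (adjusted p = 1.5e-08), and Hnrnpr fell 1.67-fold. Translation initiation factors had 12 of 53 higher and 8 lower, and 5 and 11 with library size scaling. Without JQ1 library 3 the counts were 6 and 5, without JQ1 library 1 or DMSO library 3 they were 7 and 5, without JQ1 library 2 they were 12 and 5, and without DMSO library 1 they were 10 and 5. Eif1, which selects the start codon, rose 1.66-fold. Proteins of the RBM series had 12 of 37 higher and 7 lower, turning to 6 and 12 (7 and 6 without DMSO library 2, 8 and 4 without DMSO library 1), and mRNA decay factors 8 of 44 higher and 6 lower, turning to 5 and 12. Mitochondrial ribosomal proteins had 18 of 77 lower and 4 higher (median -0.13), and 32 and 3 with library size scaling. Without JQ1 library 3 the 18 falls were 10, without DMSO library 1 they were 11 and without DMSO library 2 or JQ1 library 1 they were 12, and with DESeq2 they were 10. Mrpl19 fell 2.46-fold. DEAD and DEAH helicases had 13 of 48 lower and 6 higher, with the falls at 7 without JQ1 library 3 and 8 without JQ1 library 2. Aminoacyl-tRNA synthetases had 1 of 20 lower, Dars (1.32-fold), and none higher, and Dars was not called without JQ1 library 1 (adjusted p = 0.056) or DMSO library 1 (0.099).

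Autophagy genes, which build and load the vesicles that carry cell contents to the lysosome, had 11 of 29 higher and 1 lower (median 0.31), and 8 and 1 with library size scaling. Ulk1, the kinase that starts autophagy, held 29.7, 25.9 and 27.6 CPM under DMSO and 92.8, 89.7 and 83.1 under JQ1, 3.19-fold higher (adjusted p = 1.7e-09). Sqstm1, a cargo receptor gene, rose from 35.6 ± 3.40 to 70.8 ± 8.53 CPM. Ulk4, which the rule also named and which is counted among the 11, overlaps Ctnnb1 on the opposite strand. Ulk4 held 209, 202 and 186 CPM under DMSO and 377, 347 and 374 under JQ1, and Ctnnb1 225, 217 and 200.4 against 421, 377 and 415, so the counts of Ulk4 cannot be told apart from those of Ctnnb1. Ubiquitin ligase adaptors of the F-box and Kelch type had 15 of 66 higher and 6 lower, turning to 6 and 11 with library size scaling. The rises numbered 8 without JQ1 library 1, 8 without DMSO library 3 and 7 with DESeq2. Fbxo33 rose 2.99-fold, and Klhl6, a Kelch protein gene of B cells, fell 3.01-fold from 50.7 ± 2.53 CPM. Deubiquitinases had 9 of 47 higher and 5 lower, and 7 and 9 with library size scaling; Usp20 rose 3.05-fold. Proteasome genes had 6 of 47 higher and none lower, and complex I genes 6 of 48 higher and none lower, but with library size scaling each had 6 lower, against 2 and 1 higher. The complex I rises were 2 without DMSO library 1 and 3 without DMSO library 2 or JQ1 library 1.

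Transporters and genes of DNA metabolism showed few shared moves. Transporters of the SLC class other than amino acid and mitochondrial carriers had 22 of 93 lower and 13 higher. Without JQ1 library 1 they had 12 lower and 13 higher, without JQ1 library 2, 14 and 13, and with DESeq2, 11 and 12, so no direction was read. Plasma membrane amino acid transporters had 5 of 17 higher and 4 lower. The glutamine carrier genes Slc38a2 and Slc1a5 rose 1.57-fold and 1.48-fold, while Slc38a1 and the cationic carrier gene Slc7a1 fell 1.46-fold and 1.48-fold. Mitochondrial carriers had 7 of 30 higher and 1 lower, and 3 and 3 with library size scaling. DNA repair genes had 11 of 52 lower and 5 higher, with 6 and 3 without JQ1 library 3, 10 and 3 without JQ1 library 2, and 5 and 3 with DESeq2. Of 38 replication genes of the MCM, polymerase and clamp loader classes, 3 fell and 2 rose, and with library size scaling 13 and 2.

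Long noncoding genes responded at about the rate of all genes, with 59 of 506 higher and 68 lower, but 408 of the 506 overlap a gene on the opposite strand. Zswim6 is in this class only because the annotation used types it as a processed transcript, though its symbol names a gene that encodes a protein. It held 9.97, 9.67 and 9.83 CPM under DMSO and 50.9, 48.1 and 50.5 under JQ1. Mir17hg, the host transcript of the miR-17-92 microRNA cluster and a known MYC target, rose from 81.2 ± 1.79 to 128 ± 10.5 CPM. Ftx, a noncoding gene of the X inactivation centre, fell from 17.6 ± 3.35 to 3.53 ± 0.814 CPM. Gm16279 lies opposite Mrps18b, and their values were nearly the same in every library: 94.4, 92.4 and 87.0 CPM under DMSO for Gm16279 against 95.9, 94.4 and 88.5 for Mrps18b.

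Neighbours on the chromosomes were compared for the same reason. Neighbouring protein-coding genes that were both called moved the same way in 84 of 91 convergent pairs whose ends overlap (92.3%) and in 39 of 44 overlapping pairs on the same strand (88.6%). In overlapping divergent pairs it was 18 of 30 (60%). For pairs that do not overlap the share was 55.8% of 206 convergent, 52.1% of 215 divergent and 48.6% of 434 same-strand pairs. The part of shared reads in the figures for overlapping pairs was not tested.

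Processed pseudogenes, copies of mature transcripts, had 16 of 840 called higher (1.90%) and 17 lower (2.02%), with a median SE of 0.41 against 0.17 for all tested genes. They also supplied most of the large changes that failed the test. At a mean level of 10 CPM or more, 43 genes were called with a change over 4-fold, and 25 changed by over 4-fold without being called, 16 of them processed pseudogenes. In these the level often sat in 1 library. The following examples were chosen after their values were seen. Atp5l-ps2 held 0.94, 0 and 86.1 CPM under DMSO and 0.421, 0 and 0 under JQ1 (adjusted p = 0.15). Rpl10-ps1 held 9.03, 10.2 and 39.6 CPM under DMSO and 40.4, 887 and 61.7 under JQ1 (adjusted p = 0.099). DESeq2 called both, at adjusted p of 0.023 and 0.0081. How reads that match several genes were counted is not known here, so values of pseudogenes and of their parent genes are uncertain.

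Genes called lower made up a larger share where the promoter was poor in CG dinucleotides. RefSeq promoters of build GRCm38.p6, which has the coordinates of mm10, covered 7383 of the 8893 tested protein-coding genes on the chromosomes held by the table (83.0%), and 84.4% of those called higher and 82.8% of those called lower. Each runs from 250 bases before a start site to 50 after it. The CpG ratio is the number of CG dinucleotides over that expected from the counts of C and G, and most mammalian promoters of broadly expressed genes are rich in them. At a ratio of at most 0.5, 31.3% of 936 genes were called lower and 7.05% higher. Above 0.5, 14.7% of 6447 were lower and 16.6% higher. Falls over 2-fold made up 16.6% of the first set and 3.54% of the second. In finer steps the share called lower was 32.2% at ratios up to 0.25, 30.8% from 0.25 to 0.5, 14.9% from 0.5 to 0.75, 14.2% from 0.75 to 1 and 15.4% above 1. By number, 293 genes called lower had a ratio of at most 0.5 and 946 a ratio above it. The median ratio was 0.77 for all genes called lower, 0.85 for all called higher and 0.81 for all tested. It was 0.63 for genes called lower by over 2-fold and 0.77 for those called higher by over 2-fold.

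Genes under 10 CPM made up 430 of the 936 at a ratio of at most 0.5 and 1586 of the 6447 above it, so the comparison was repeated within classes of level. Between 10 and 25 CPM, 38.6% of 210 genes at a ratio of at most 0.5 were called lower, against 16.5% of 1584 above 0.5. Between 50 and 100 CPM the shares were 36.6% of 93 and 13.9% of 962, and above 100 CPM 22.2% of 81 and 10.5% of 1029. The share called lower was larger at ratios of at most 0.5 under 19 of 19 alternatives in processing, and the share called higher was larger above 0.5 under 19 of 19, a count added after seeing the data. With library size scaling 37.9% and 22.7% were lower. Without JQ1 and DMSO libraries 2, the richest in myeloid markers within each group, the shares lower were 26.4% and 10.4%. Genes are not replicates, and no test was made over them. Of the families, CD-numbered genes had a ratio of at most 0.5 at 15 of 22 promoters, 11 of which belonged to genes that fell, cytokine and TNF receptors at 11 of 22 and G protein-coupled receptors at 9 of 17, against 936 of 7383 overall and 2 of 62 for splicing factors.

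**Figure D5:**
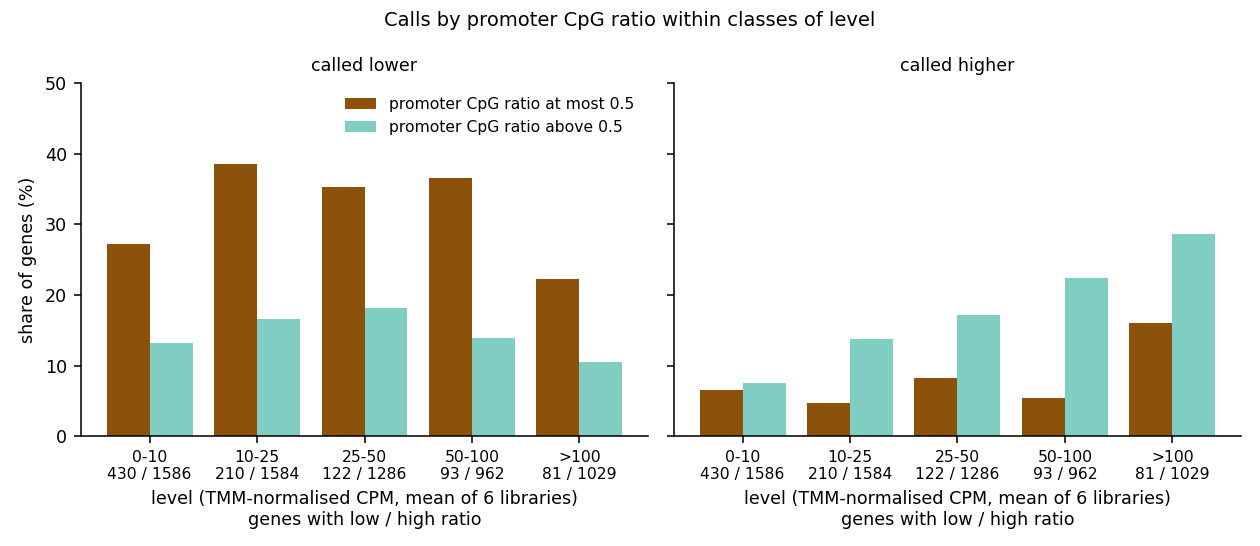
Share of protein-coding genes called lower (left) and higher (right) by class of level, for promoters with a CpG ratio of at most 0.5 (brown) and above 0.5 (green), with the numbers of genes below. In every class the brown bar is the taller one on the left, such as 38.6% against 16.5% between 10 and 25 CPM, and the shorter one on the right.

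The promoters of 5 genes show the contrast. They are the 3 largest losses of CPM among genes over 2-fold lower with a ratio of at most 0.5 and the 2 largest gains among genes over 2-fold higher above 0.5, among the 338 of 566 such genes whose window holds at most 30 bases of annotated exon. The 250 bases before the RefSeq start site are printed 5′ to 3′ on the gene's strand of GRCm38.p6, with each CG in capitals: Fcrla at chr1:170927584-170927833 (minus), Mef2c at chr13:83503784-83504033 (plus), Adam19 at chr11:46055734-46055983 (plus), Rbm34 at chr8:126971050-126971299 (minus) and Hist1h1c at chr13:23738557-23738806 (plus).
Fcrla: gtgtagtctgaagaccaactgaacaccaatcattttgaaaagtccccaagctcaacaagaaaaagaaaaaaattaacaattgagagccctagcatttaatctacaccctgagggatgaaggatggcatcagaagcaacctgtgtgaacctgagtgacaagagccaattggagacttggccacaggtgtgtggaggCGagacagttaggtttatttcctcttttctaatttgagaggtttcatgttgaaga
Mef2c: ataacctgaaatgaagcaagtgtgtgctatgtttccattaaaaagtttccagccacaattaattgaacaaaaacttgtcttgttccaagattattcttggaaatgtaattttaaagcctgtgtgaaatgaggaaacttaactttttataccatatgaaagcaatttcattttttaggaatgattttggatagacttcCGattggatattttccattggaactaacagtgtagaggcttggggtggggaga
Adam19: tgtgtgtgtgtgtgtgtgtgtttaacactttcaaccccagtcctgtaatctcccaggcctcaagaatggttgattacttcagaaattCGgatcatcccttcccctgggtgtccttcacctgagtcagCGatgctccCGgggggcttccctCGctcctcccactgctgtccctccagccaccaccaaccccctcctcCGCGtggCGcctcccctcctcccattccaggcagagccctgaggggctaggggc
Rbm34: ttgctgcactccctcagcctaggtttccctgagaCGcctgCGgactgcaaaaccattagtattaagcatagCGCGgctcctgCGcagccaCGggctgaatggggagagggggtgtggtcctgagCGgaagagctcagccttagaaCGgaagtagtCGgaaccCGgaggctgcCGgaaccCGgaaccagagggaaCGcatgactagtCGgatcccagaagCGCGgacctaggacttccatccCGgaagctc
Hist1h1c: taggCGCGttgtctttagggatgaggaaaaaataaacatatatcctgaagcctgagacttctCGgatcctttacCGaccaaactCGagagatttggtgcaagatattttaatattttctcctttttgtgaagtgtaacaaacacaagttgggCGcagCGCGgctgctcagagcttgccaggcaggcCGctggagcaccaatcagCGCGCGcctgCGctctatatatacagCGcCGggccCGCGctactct
Fcrla, which encodes an Fc receptor-like protein of B cells, has 1 CG in this window, and its level went from 175, 169 and 166 CPM under DMSO to 54.5, 55.7 and 48.9 under JQ1 (log2 fold change -1.68 ± 0.09, adjusted p = 5.8e-10). Mef2c, a MADS-box factor gene of B cell proliferation, also has 1 CG and went from 151, 134 and 137 CPM to 56.4, 60.7 and 52.3. Adam19, a membrane metalloprotease gene, has 7 CG and went from 101, 114 and 104 CPM to 24.8, 20.9 and 22.5, 4.66-fold lower. The windows of Rbm34 and of the linker histone gene Hist1h1c have 17 CG each. Hist1h1c held 99.7, 145 and 111 CPM under DMSO and 229.8, 268 and 264 under JQ1 (adjusted p = 0.016, and 0.056 and 0.057 without DMSO library 1 and DMSO library 3). The JQ1 and DMSO libraries did not overlap for any of the 5, a condition of the choice. TATAAA stands in the Mef2c window, and CCAAT in those of Mef2c, Fcrla and Hist1h1c, each searched on both strands.

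Short words were counted in the 300-base promoters on both strands as a further description, 16 in all, some of which share letters, such as GAGGAAGT and AGGAAGTG. The octamer ATTTGCAT, the element bound by the POU2F factors, was in 98 promoters (1.33%), of which 25.5% belonged to genes called higher and 11.2% to genes called lower, against 15.4% and 16.8% of all 7383. The shorter core TTTGCAT, which takes in those promoters, was in 226 (3.06%), with 16.4% higher and 18.1% lower. The cyclic AMP response element TGACGTCA was in 272 (3.68%), with 21.3% higher and 13.6% lower. CCAAT was in 2938 (39.8%), with 17.1% and 14.6%. The E-box CACGTG, which MYC and its partner MAX bind, was in 820 promoters (11.1%), with 15.7% higher and 15.6% lower. CCGGAAG, an ETS core with a CG, was in 1649 (22.3%), with 13.5% higher and 15.9% lower. GAGGAAGT, the purine-rich core of PU.1 sites, stood apart on the lower side and is singled out after its values were seen. It was in 234 promoters (3.17%), of which 29.5% belonged to genes called lower, 14.1% over 2-fold, and 9.83% to genes called higher. At ratios of at most 0.5, 50.8% of 63 were lower against 31.3% of all such genes, and above 0.5, 21.6% of 171 against 14.7%. A word is a run of letters and not a site shown to be bound.

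The 5 genes over 2-fold lower with the largest loss of CPM among those whose promoter holds GAGGAAGT show the word in its surroundings. Each window has 30 bases with the word in capitals, 5′ to 3′ on the strand that carries it: the minus strand at chr8:122699328-122699357 for Cbfa2t3, chr1:131200288-131200317 for Rassf5 and chr1:193201634-193201663 for Traf3ip3, and the plus strand, opposite the gene, at chr6:128891148-128891177 for BC035044 and chr14:31436090-31436119 for Sh3bp5. The start site used for Rassf5 lies inside its annotated gene.
Cbfa2t3: aggcgggatagGAGGAAGTtgttgggaagt
Rassf5: gaaccttgctaGAGGAAGTggctttagagc
Traf3ip3: agcaccaaccaGAGGAAGTgaatactgggc
BC035044: agaagtgatagGAGGAAGTgaatagtggca
Sh3bp5: gcggagtggcaGAGGAAGTgggcgcggctg
Cbfa2t3, which encodes a transcriptional corepressor, held 39.5, 41.2 and 35.5 CPM under DMSO and 7.997, 3.81 and 4.44 under JQ1. Rassf5, a Rap effector gene of lymphocyte adhesion, went from 43.1, 57.7 and 45.8 CPM to 16.6, 17.9 and 17.8, and Traf3ip3 from 36.9, 36.1 and 44.6 to 13.7, 9.76 and 12.03. BC035044 and Sh3bp5 fell by 3.69-fold and 2.11-fold. The JQ1 libraries lay below all DMSO libraries for each of the 5, a condition of the choice.

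Gene structure showed a weaker pattern. Of protein-coding genes that span 100 to 200 kb, 24.0% of 704 were called lower, against 9.54% of 262 genes of at most 2 kb, and the order was the same under 19 of 19 alternatives. Above 200 kb the share was 20.8% of 274, and the median SE was 0.24 for the genes of at most 2 kb against 0.15 for those of 100 to 200 kb. Genes with 2 exons had 21.7% of 281 lower and single-exon genes 7.37% of 217. Without histone genes, single-exon genes had 9.52% of 168 lower and 12.5% higher. By chromosome, the share of protein-coding genes called lower ran from 10.6% of 502 on chromosome 8 to 23.2% of 250 on chromosome 18.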

How the data were processed

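Poly(A) RNA tags were measured in 9 libraries of cultured lymphoma cells, of which the JQ1 and DMSO libraries are described here. The authors deposited raw counts per gene. The submitters' processing notes name HISAT2 2.1.0, cutadapt 1.7, featureCounts of Subread, limma, FastQC 0.11.5 and bcl2fastq 2.17.1.14, with build mm10. Not given in the sources used here: the annotation release and how strand and reads with several matches were treated. QuantSeq counts 1 tag per transcript, so CPM was not divided by length.

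The 92 ERCC spike-in rows were left out of library sizes. Of 43629 gene rows, 42548 had a symbol in the table used, and those without, kept under their identifiers, took 1.93% to 2.49% of gene counts in the 6 libraries. Genes were placed on GENCODE M21. Counts were fitted with edgeR 4.0.16 in R 4.3.3 (filterByExpr with a minimum count of 10, TMM scaling, robust quasi-likelihood fit, group as the only term, 9 libraries sharing 1 spread), and p-values were adjusted by Benjamini-Hochberg over all 11002 tested genes. The SE is the log2 fold change over the root of its F statistic, and folds of low genes depend on the prior count. On simulated counts of 10893 genes for JQ1 against DMSO, 85 of 106 genes changed 2-fold and 90 of 94 changed 4-fold were called, with 6 false calls. Every simulated gene had the same spread, set below the common estimate of the data, so these counts do not give the rates in the real data. Alternatives used limma 3.58.1, DESeq2 1.42.0, other scalings, filters and left-out libraries. Classes and figures used Python 3.11.15. Classes of level were planned from DMSO libraries and are given both ways.

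Named genes were the 10 largest gains and losses of CPM without overlap, the 10 most abundant, up to 4 called members of smallest p per family, the 5 highest of those passing to or from under 1 CPM, 5 long noncoding genes per direction and checks of the treatment. A few genes outside this rule, shown for their sequence, their neighbours or as pseudogene examples, were chosen after their values were seen. The genes, lists and families were chosen with earlier results of these data known. Some genes are not reported here.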

Additional observations from a re-analysis of the deposited data

How the results depend on the processing

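The call of 3184 genes became 1196 with ERCC scaling (445 higher, 751 lower) and 599 in a test against a 1.5-fold change (231 higher, 368 lower). Library size scaling gave 3357 calls, of which 913 were higher and 2444 lower. DESeq2 gave 2147, of which 1086 were lower. ERCC scaling together with the replicate block gave 2829, limma with voom 3201, no filter 3361 of 23655 genes, and a mean of at least 10 CPM 2467 of 7449. Leaving out 1 library gave 2492 to 2960 calls, 1179 to 1446 higher and 1313 to 1514 lower. Leaving out JQ1 and DMSO libraries 2 together gave 2529, with 1215 higher and 1314 lower. The replicate block gave 3092. In TMM-scaled levels, libraries with the same number did not deviate together (correlations over genes of 0.029, -0.007 and 0.048). The numbers were therefore not taken as pairs. These correlations do not cover the ERCC share of counts, which fell with the replicate number in both groups. It was 1.51%, 1.18% and 1.13% in DMSO libraries 1 to 3. In JQ1 libraries 1 to 3 it was 1.37%, 1.22% and 0.96%. Of 254 named genes, 97 lost their call with ERCC scaling, 139 in the test against 1.5-fold, 13 with library size scaling and 14 with DESeq2. The mitochondrial rRNA gene mt-Rnr2, not called, turned from 0.11 to -0.0199 with library size scaling. The cause of these shifts was not tested. At this depth the median SE was 0.17 on the log2 scale, and 0.41 for processed pseudogenes.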
